A study of Mus musculus with 6 samples.

Results

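The cluster of miR-143 and miR-145 is a smooth muscle miRNA locus, and 3 of its mature products were followed here in mouse lung after bleomycin: mmu-miR-143-3p, mmu-miR-145a-5p and mmu-miR-145a-3p, written without the mouse prefix below. They were chosen by name for their known link to smooth muscle and myofibroblasts, and all 3 were found among the 1963 mature mouse miRNA probes of the array. Whole lungs of littermate WT mice of the C57Bl6 strain, 8 to 10 weeks old, were compared at day 21 between 3 untreated WT mice, which received saline, and 3 WT-BLM mice, which received bleomycin (BLM, a drug that injures the lung and induces fibrosis) into the trachea at 1.5 U/kg. Each array held the total RNA of 1 mouse, stained with 1 dye. The sex of the mice is not given in the sources used here, and IKBM mice, which carry an inhibitor of NF-κB, were not analysed here.

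The genes of miR-143 and miR-145a lie within the same host gene in the RefSeq annotation, the long noncoding RNA Carmn, and both miRNAs are cut from a shared primary transcript. In smooth muscle cells and pericytes this transcript is switched on by serum response factor and its partner myocardin. The miRNAs then hold the cells in the contractile state, in which miR-145 represses the transcription factors KLF4 and KLF5. Myofibroblasts, the contractile cells that deposit collagen in fibrosis, share much of this program. Each miRNA precursor is a hairpin with a 5p and a 3p arm. The 3p arm of miR-143 and the 5p arm of miR-145a are the usual guide strands, while miR-145a-3p is the minor arm that is mostly degraded. In whole lung RNA, fewer cells of a type and less RNA per cell cannot be told apart.

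A miRNA selects its targets mainly through its seed, bases 2 to 8 from the 5′ end. No other probe among 1962 shared a seed with miR-143-3p or with miR-145a-3p. The seed of miR-145a-5p was shared by 1 probe, that of miR-145b, a related mouse miRNA with the same first 17 bases. The 5 miRNAs below, with the seed in capitals and sequences from RefSeq (GRCm38.p6), are shown because later comparisons turn on them: the levels of the first and second did not overlap between the groups, and the other three are among those most correlated with miR-145a-3p, on which 1 array bears strongly. Their seeds differ from those of the cluster.
miR-199a-5p: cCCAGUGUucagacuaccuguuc
miR-222-3p: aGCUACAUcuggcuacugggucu
miR-146a-5p: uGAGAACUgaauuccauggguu
miR-29c-3p: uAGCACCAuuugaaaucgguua
miR-99a-5p: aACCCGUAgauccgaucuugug

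None of the 3 members differed between WT-BLM and untreated WT lungs beyond the spread between mice, and the groups overlapped for each. miR-145a-5p was the steadiest, with a mean change of -0.05 on the log2 scale. Most of the size of the lower mean of miR-143-3p, and of the higher mean of miR-145a-3p, came from 1 spot of 1 array. Levels below are normalized log2 intensities, the mean of both spots of a probe, in the order of mice 1, 2 and 3 of a group. Detection on an array required a mean intensity over 3 SDs above the median of its 800 empty spots, and 275 probes that met this on at least 3 of 6 arrays were tested. All 3 members were detected on all 6 arrays, as were 116 probes in total. Over the 275 miRNAs, limma with Benjamini-Hochberg adjustment called 0 (0%), the unadjusted p was under 0.05 for 5 (1.82%), and the groups did not overlap for 13 (4.73%), of which 11 (4%) were higher and 2 (0.727%) lower in WT-BLM lungs. The 3 members were in none of these counts.

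The arrays differed in quality. The number of detected probes was 132 to 327 in untreated WT and 176 to 365 in WT-BLM mice, and it was lowest on the arrays of untreated WT mouse 3 and WT-BLM mouse 1, where the empty spots had SDs of 59.3 and 45.2 against 8.01 to 18.1 elsewhere. Both spots of a probe differed by over 1 on the log2 scale, called discordant here, for 19, 1 and 7 of the 116 miRNAs in untreated WT mice 1, 2 and 3, and for 13, 1 and 9 in WT-BLM mice 1, 2 and 3. The epithelial markers, which are of the miR-200 and miR-34 families and their relatives, were all detected widely enough to be tested (8 of 8), as was the endothelial miR-126a-3p. They mark epithelium and endothelium of other organs too, and no other tissue was compared. Precision is limited by the number of arrays, and with 3 mice per group the smallest two-sided p of an exact permutation test is 0.10.

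miR-143-3p, the main product of the miR-143 hairpin, was at 14.01, 13.53 and 13.90 in untreated WT lungs. In WT-BLM lungs it was at 11.64, 13.55 and 13.59. WT-BLM mouse 1 was far below the other 5 mice, and the other WT-BLM mice were at the level of untreated WT mouse 2. The means were 13.81 ± 0.25 (SD, n = 3) and 12.93 ± 1.12 (SD, n = 3), a log2 fold change of -0.88 with an SE of 0.52 and a 95% interval of -2.11 to 0.34 (limma, adjusted p = 1). The exact permutation test gave p = 0.3 (two-sided, n = 3 per group).

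The low value of WT-BLM mouse 1 came from 1 of its 2 spots. On the array of WT-BLM mouse 1, the first spot of miR-143-3p was 10953 above the median of the empty spots and the second was 730, or 0.0666 of the first. On the other 5 arrays both spots differed by at most 0.62 on the log2 scale, and their intensities were between 8105 and 16824. Brightness within the dim spot varied by 5.43%, against up to 13.8% for the other spots of this probe. Leaving out discordant spots means both spots of the pair, which drops WT-BLM mouse 1 for this probe. It gave a log2 fold change of -0.24 (95% interval -0.84 to 0.36, limma, adjusted p = 1). Omitting the whole array of WT-BLM mouse 1 is nearly the same step and gave -0.25. First spots alone gave -0.34 and second spots alone gave -1.43. In the authors' own normalized table, on a linear scale, the values were 16055, 11377 and 14124 in untreated WT and 11946, 10614 and 12271 in WT-BLM lungs. There WT-BLM mouse 1 lay between the other WT-BLM mice, and the mean of WT-BLM was 0.838 of untreated WT (exact permutation test, p = 0.3, n = 3 per group). In linear terms the 95% interval was 0.232 to 1.27 of the untreated level with the dim spot and 0.558 to 1.29 with discordant spots left out, so that mainly the lower bound moved.

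**Figure D1:**
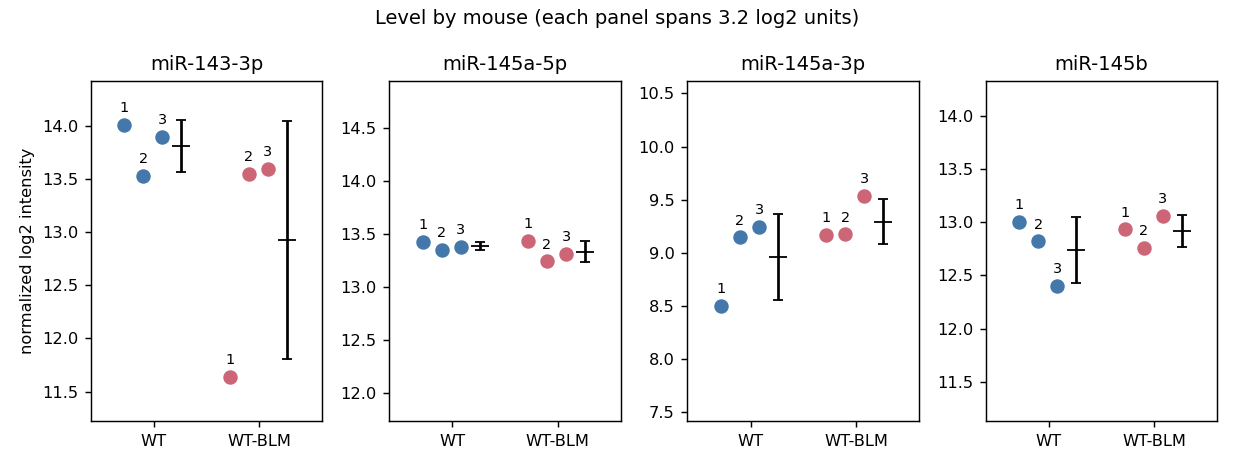
Normalized log2 intensity (vertical axis) of the 3 members and of miR-145b in each mouse, numbered by mouse, with the mean and SD of each group as the bar beside the points. Every panel spans the same number of log2 units. WT-BLM mouse 1 stands apart at 11.64 for miR-143-3p and untreated WT mouse 1 at 8.50 for miR-145a-3p, while miR-145a-5p stays between 13.24 and 13.44 in all mice.

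miR-145a-5p, the guide strand that represses KLF4 and KLF5, was at 13.43, 13.35 and 13.38 in untreated WT lungs and at 13.44, 13.24 and 13.31 in WT-BLM lungs. All 6 mice were close together and the groups interleaved. The means were 13.39 ± 0.037 and 13.33 ± 0.098 (SD, n = 3 each), a log2 fold change of -0.05 with an SE of 0.20 (limma, adjusted p = 1). The 95% interval in linear terms was 0.698 to 1.33 of the untreated level. The 2 spots of this probe differed by at most 0.53 on the log2 scale, and none was discordant. Before normalization, the spots were between 6319 and 14314 above the empty spots. The authors' values were 10429, 9693 and 10818 in untreated WT against 10478, 8667 and 9767 in WT-BLM lungs, and the ratio of the means was 0.934.

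miR-145a-3p, the passenger arm of the same hairpin, was at 8.50, 9.14 and 9.25 in untreated WT lungs and at 9.17, 9.17 and 9.53 in WT-BLM lungs. Untreated WT mouse 1 was the lowest, and the remaining untreated WT mice lay around the level of WT-BLM mice 1 and 2. The means were 8.96 ± 0.41 and 9.29 ± 0.21 (SD, n = 3 each), a log2 fold change of 0.33 with an SE of 0.27 and a 95% interval of -0.31 to 0.97 (limma, adjusted p = 1). Here too most of the size came from 1 spot. In untreated WT mouse 1 the first spot was 116 above the empty spots and the second was 674, 5.82 times as bright, while on the other arrays the spots of this probe differed by at most 0.72 on the log2 scale. The log2 fold change was 0.10 when discordant spots were left out, which drops untreated WT mouse 1 for this probe. Omitting the whole array of that mouse is nearly the same step and gave 0.10. Second spots alone, free of the dim spot, gave 0.08. The authors' values were 580, 481 and 528 in untreated WT and 481, 481 and 572 in WT-BLM lungs, with means of 529.7 ± 49.5 and 511.3 ± 52.5 (SD, n = 3 each), and the direction was thus opposite to that of the spots.

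**Figure D2:**
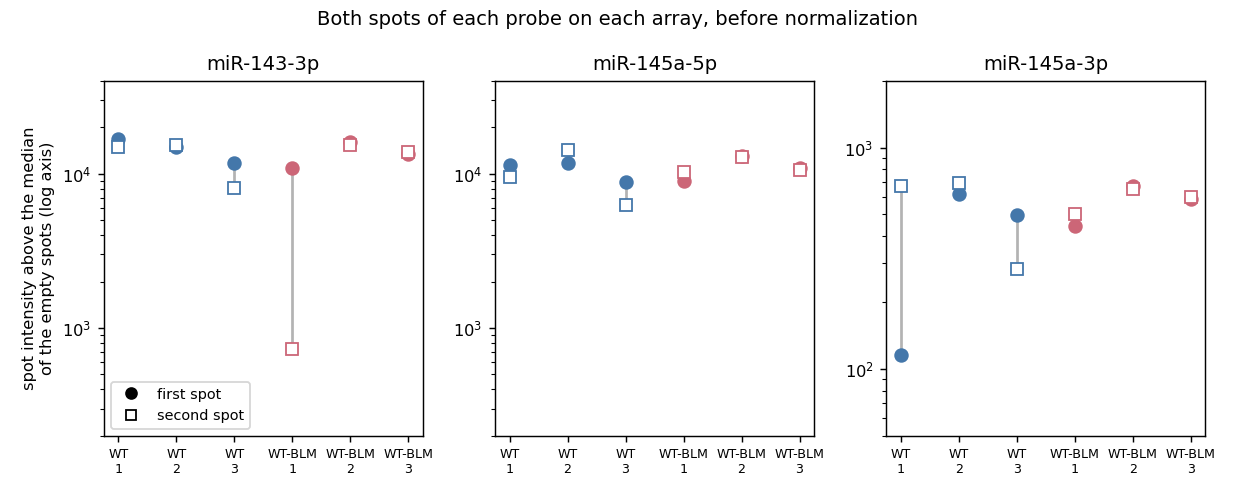
Both spots of each member on each array, as intensity above the median of the empty spots before normalization (vertical axis, log scale). First spots are filled circles, second spots open squares, and a line joins the pair. The second spot of miR-143-3p in WT-BLM mouse 1, at 730, and the first spot of miR-145a-3p in untreated WT mouse 1, at 116, are far from their partners.

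Both dim spots were looked at beside those neighbours on the chip whose probes were detected on at least 3 arrays. The spot of miR-145a-5p next to the dim miR-145a-3p spot of untreated WT mouse 1 had 1.21 times the intensity of its own partner, and that of miR-144-5p had 0.959 times. Next to the dim miR-143-3p spot of WT-BLM mouse 1, the spot of miR-20b-5p had 0.993 times the intensity of its partner and that of miR-210-3p had 0.387 times. The bright neighbour in the first case was therefore not dimmed, while in the second both of these neighbours were close to the empty spots, at 57.8 and 28.5 above them. The reason for the dim spots was not tested.

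The remaining products of the family were also measured. miR-145b was detected on all arrays, at 13.01, 12.82 and 12.40 in untreated WT and 12.93, 12.76 and 13.06 in WT-BLM lungs. Its log2 fold change was 0.18 with an SE of 0.24 (limma, adjusted p = 1), and the groups overlapped. Without untreated WT mouse 3 it was 0.00053, without untreated WT mouse 1 it was 0.29, and first spots alone gave 0.0064. Its probe shares 17 bases with that of miR-145a-5p, and binding of 1 miRNA to both probes was not tested. miR-143-5p, the minor arm of miR-143, was detected on 1 of 6 arrays, that of untreated WT mouse 1, where its mean was 1.02 times the detection limit and its second spot was uneven (a spread of 48.5%). It was therefore not tested, and its log2 intensity was between 6.10 and 6.67 in all mice.

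The arms and the products of the shared transcript were then compared within each array. Such a difference contains the binding strengths of both probes, so only its change between the groups is read. The log2 intensity of miR-145a-5p minus that of miR-145a-3p was 4.93, 4.21 and 4.13 in untreated WT and 4.27, 4.07 and 3.78 in WT-BLM lungs. The mean change was -0.38 with an SE of 0.29 (exact permutation test, two-sided, p = 0.3, n = 3 per group), and the groups overlapped. Untreated WT mouse 1, with its dim miR-145a-3p spot, had the highest difference. With discordant spots left out the change was -0.13 (exact permutation test, p = 0.6, n = 2 against 3), and in the authors' values it was -0.05 (exact permutation test, p = 0.9, n = 3 per group). A shift in the use of the miR-145a arms was not detectable.

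The log2 intensity of miR-143-3p minus that of miR-145a-5p was 0.58, 0.18 and 0.52 in untreated WT and -1.80, 0.31 and 0.28 in WT-BLM lungs. The change was -0.83 with an SE of 0.71 (exact permutation test, two-sided, p = 0.3, n = 3 per group). WT-BLM mouse 1 alone was below 0. Leaving out both discordant spots of miR-143-3p removes this mouse. The change was then -0.13 with an SE of 0.13 (exact permutation test, p = 0.4, n = 3 against 2). First spots alone, which keep this mouse without its dim spot, gave -0.18. In the authors' values the change was -0.14 with an SE of 0.12 (exact permutation test, p = 0.4, n = 3 per group). The difference between miR-145b and miR-145a-5p changed by 0.23 with an SE of 0.19 (exact permutation test, p = 0.4, n = 3 per group).

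**Figure D3:**
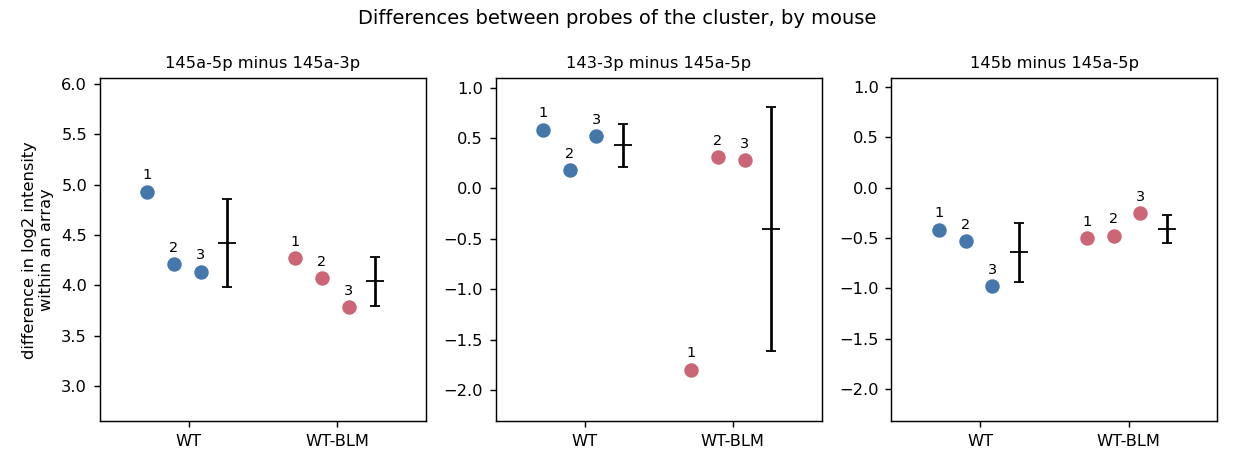
Differences in log2 intensity within an array (vertical axis) between probes of the cluster, by mouse, with the mean and SD of each group. The groups overlap in all 3 panels. The level of a difference reflects the probes as well as the miRNAs, and a reader should compare only WT with WT-BLM inside a panel.

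The size of the members' changes moved with the treatment of the 2 spots, and also with normalization and array weights. With both spots kept, miR-145a-3p was at 0.07 under scaling to the 75th percentile and miR-145a-5p at 0.13 with no normalization. miR-143-3p was at -0.64 with no normalization and -0.68 with array weights. miR-143-3p was lower in WT-BLM under all 12 alternatives that can change its fold and all 6 omissions of a mouse, between -1.43 and -0.24, and its lowest adjusted p among them was 0.784. Its lowest unadjusted p was 0.0456, from limma after scaling to the 75th percentile, with a log2 fold change of -0.92 and an adjusted p of 0.991. miR-145a-5p lay between -0.20 and 0.13 and miR-145a-3p between -0.15 and 0.58 under the alternatives, so that neither had a settled direction.

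**Figure D4:**
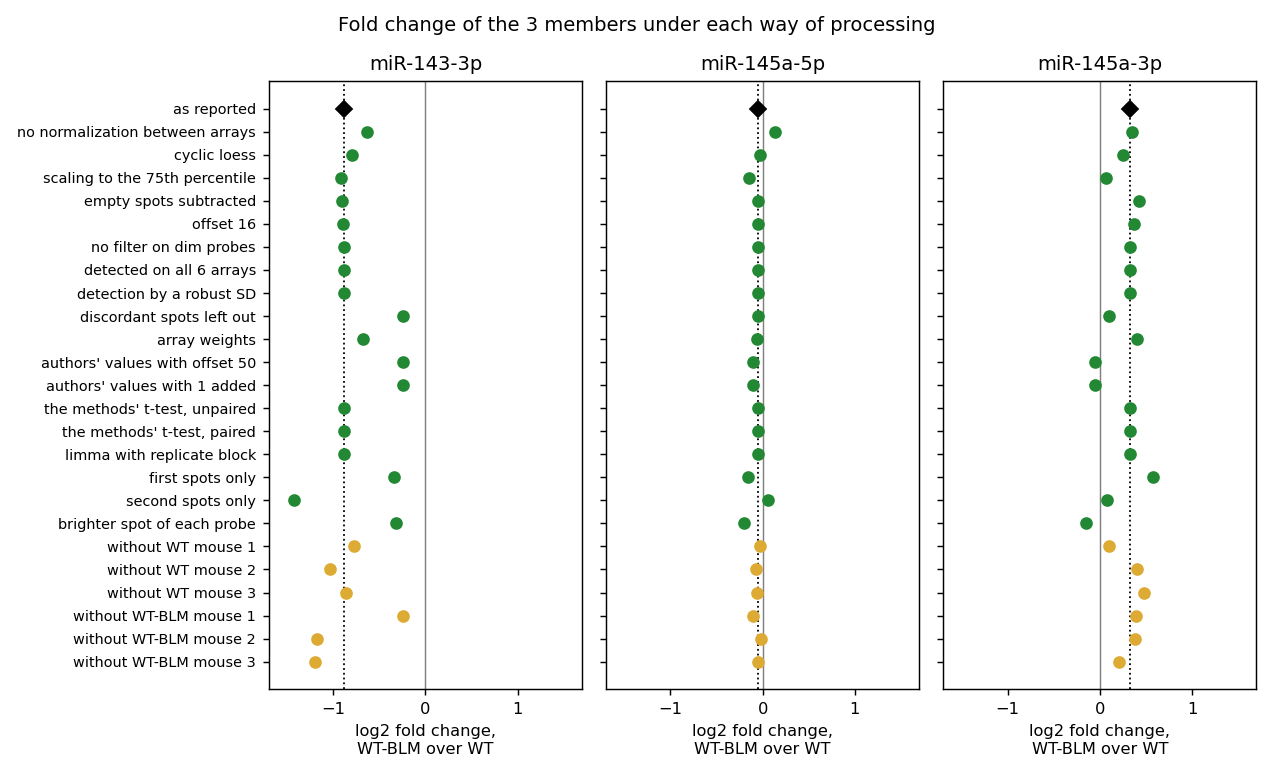
Log2 fold change, WT-BLM over WT (horizontal axis), of the 3 members under each alternative (green) and with each mouse left out (yellow). The diamond and dotted line are the values as reported. For miR-143-3p the points near -0.24 are those that leave out both discordant spots or their mouse, or use the authors' values.

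A list of 23 other miRNAs of smooth muscle and stromal cells was read beside the members. Of these, 19 were tested, 12 (63.2%) had a higher and 6 a lower mean in WT-BLM lungs, beside 155 (56.4%) higher and 119 lower of all 275, and none passed the adjusted or the unadjusted threshold. miR-26a-5p had equal means, which follow from the like ranks of its bright spots in both groups under quantile normalization, and with no normalization its log2 fold change was 0.15. The median log2 fold change was 0.15 with a range of -0.22 to 0.71, beside a median of 0.04 over all 275 miRNAs. The 4 miRNAs not tested were miR-143-5p, miR-21a-3p, miR-204-5p and miR-214-5p, detected on 0 to 2 arrays. Before normalization, the summed intensity of all 23 above the empty spots was 72338 to 133376 in untreated WT and 106741 to 147559 in WT-BLM lungs. The lowest sum was that of untreated WT mouse 3, whose array had the lowest median of the tested probes above the empty spots, 129. After normalization, the mean of the 19 tested was 11.40, 11.48 and 11.42 in untreated WT and 11.68, 11.61 and 11.48 in WT-BLM lungs.

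The groups did not overlap for 2 of the 19, both higher in WT-BLM lungs, beside 4% of all tested miRNAs in that direction. miR-199a-5p, a miRNA of activated fibroblasts that represses caveolin-1, was at 9.97, 10.07 and 9.63 in untreated WT and 10.45, 10.23 and 10.18 in WT-BLM lungs. Every WT-BLM mouse was above every untreated one, by a margin smaller than the SD of either group. Its log2 fold change was 0.40 with an SE of 0.23 (limma, adjusted p = 1). miR-222-3p, which with miR-221-3p promotes the growth of smooth muscle cells by repressing the cell cycle inhibitor p27, was at 8.42, 8.79 and 8.49 in untreated WT and 8.91, 9.32 and 8.85 in WT-BLM lungs. Its log2 fold change was 0.46 with an SE of 0.24 (limma, adjusted p = 1), and the gap between the groups was again smaller than either SD. These 2 were picked because their groups did not overlap, so their values are a description and the p-values of the whole fit add no support. They did not overlap in the authors' values either. Over the 24 other settings, alternatives and omissions of a mouse together, the log2 fold change of miR-199a-5p was between 0.21 and 0.58 and that of miR-222-3p between 0.18 and 0.67, the lowest of each under scaling to the 75th percentile. As a description, an unadjusted p under 0.05 occurred in 1 and 3 of these settings, and the lowest adjusted p of either was 0.705. The spots of miR-199a-5p were discordant in untreated WT mouse 3, and without them its log2 fold change was 0.27. For miR-222-3p it was 0.25 with second spots only and 0.31 without WT-BLM mouse 2.

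Other members of the list did not separate the groups. miR-21a-5p, which transforming growth factor β induces in fibroblasts, was at 13.34, 12.55 and 13.45 in untreated WT lungs. In WT-BLM lungs it was at 13.74, 12.80 and 13.23, and the log2 fold change was 0.14 with an SE of 0.35, turning to -0.15 without untreated WT mouse 2 and -0.11 without WT-BLM mouse 1. The miR-29 family represses collagens, and its log2 fold changes were 0.21 for miR-29a-3p, 0.15 for miR-29b-3p and 0.71 for miR-29c-3p, with SEs of 0.22, 0.51 and 0.38. miR-99a-5p, which represses mTOR, had 0.59 with an SE of 0.52, and its relative miR-100-5p had -0.22 with an SE of 0.29. These values moved widely over the 24 other settings, between 0.08 and 0.36 for miR-29a-3p, -0.44 and 0.49 for miR-29b-3p, 0.07 and 1.03 for miR-29c-3p, -0.36 and 1.54 for miR-99a-5p and -0.44 and 0.03 for miR-100-5p. miR-29c-3p and miR-99a-5p were discordant in untreated WT mouse 1, without which they were at 0.33 and -0.03, while without untreated WT mouse 3 they were at 0.94 and 1.03. miR-29b-3p was at 0.49 without untreated WT mouse 1, 0.41 without mouse 2 and -0.43 without mouse 3 of that group, and at 0.39 and -0.01 without WT-BLM mice 2 and 3. miR-100-5p was at -0.44 and 0.03 without untreated WT mice 1 and 3 and at -0.11 without WT-BLM mouse 1, and miR-29a-3p was at 0.34 and 0.09 without WT-BLM mice 2 and 3. The unadjusted p of miR-29c-3p was under 0.05 in 2 settings, and its lowest adjusted p was 0.544 in limma.

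**Figure D5:**
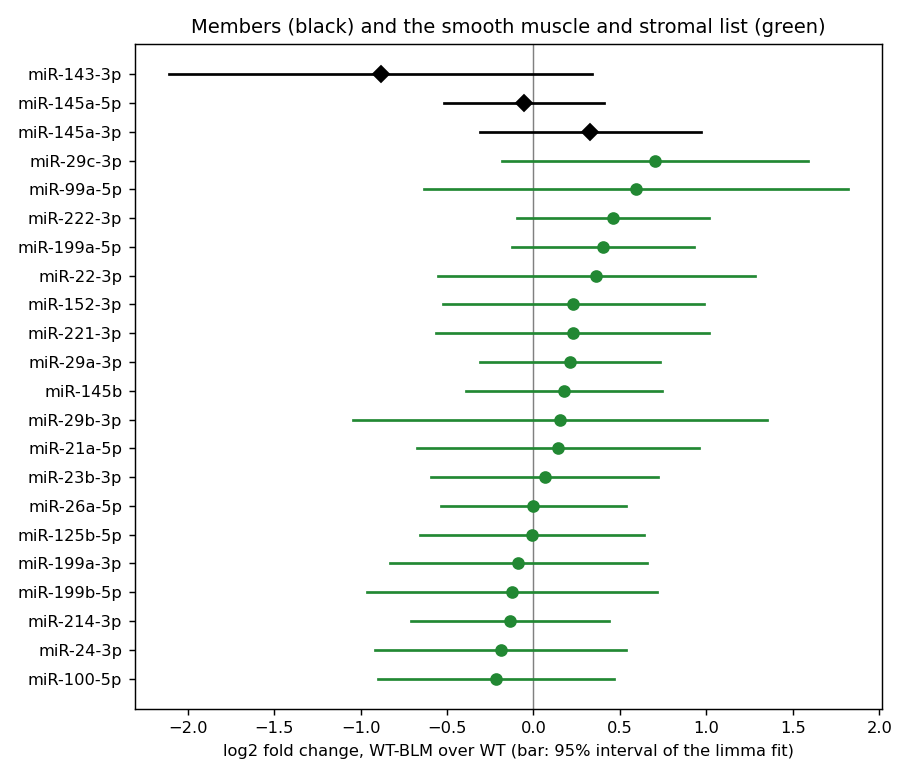
Log2 fold change, WT-BLM over WT, with its 95% interval from the limma fit (horizontal axis), for the 3 members (black diamonds) and the 19 tested miRNAs of the smooth muscle and stromal list (green). Every interval includes 0, and that of miR-145a-5p, -0.52 to 0.41, is among the narrower ones while that of miR-143-3p, -2.11 to 0.34, is among the widest.

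Another muscle type varied between these samples. Of 7 miRNAs of skeletal and heart muscle, 4 were tested and all 4 had lower means in WT-BLM lungs, with a median log2 fold change of -0.72 and none under the unadjusted threshold. The median turned on the untreated mice and spots kept: it was -0.02 without untreated WT mouse 2, with 2 of the 4 higher and 2 lower, -1.58 without untreated WT mouse 3, -1.36 with discordant spots left out and -1.54 with array weights. Among the other settings, the unadjusted p was under 0.05 in 3 for miR-1a-3p, 4 for miR-133a-3p and 4 for miR-133b-3p, and the lowest adjusted p was 0.376. Untreated WT mouse 2 stood apart: miR-206-3p, which is particular to skeletal muscle, was 1599 above the empty spots there and -7.44 to 16.8 in the other mice. The heart and skeletal muscle miR-1a-3p was at 12.96 in that mouse against 9.63 to 11.35 in the others, and miR-499-5p was detected in none. Before normalization, the summed intensity of all 7 above the empty spots was 748 to 16936 in untreated WT and 1299 to 1980 in WT-BLM lungs. Without untreated WT mouse 2, the log2 fold changes of miR-143-3p, miR-145a-5p and miR-145a-3p were -1.04, -0.07 and 0.41, and the median of the smooth muscle and stromal list was 0.22. The members were thus at least as far from 0 without this mouse as with it.

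For each member, the 5 miRNAs most like it were taken from the other 115 miRNAs detected on all 6 arrays, by the correlation of log2 intensity over the 6 arrays, which is given as a description. Those of miR-143-3p were miR-30d-5p, miR-34c-3p, let-7a-5p, miR-10a-5p and miR-214-3p, with r between 0.879 and 0.938. miR-30d-5p, let-7a-5p and miR-10a-5p were discordant on the array of WT-BLM mouse 1, as miR-143-3p was. let-7a-5p, for example, was at 14.48, 14.54 and 14.54 in untreated WT and 13.33, 14.73 and 14.87 in WT-BLM lungs. Its log2 fold change here was -0.21, whereas the paper's array table gives let-7a-5p a higher mean in bleomycin lungs. When the array of WT-BLM mouse 1 was left out, miR-10a-5p ranked 2 of 115 in likeness to miR-143-3p. miR-30d-5p, miR-214-3p and miR-34c-3p then ranked 18, 19 and 24, and let-7a-5p ranked 99.

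The 5 most like miR-145a-3p were miR-146a-5p, miR-28c, miR-29c-3p, miR-99a-5p and miR-34b-3p, with r between 0.836 and 0.946, and all 5 were discordant on the array of untreated WT mouse 1. miR-146a-5p, which NF-κB induces and which damps Toll-like receptor signaling, was at 10.05, 12.01 and 12.71 in untreated WT and 12.65, 12.32 and 12.80 in WT-BLM lungs. Its second spot minus its first was -5.73 on the log2 scale in untreated WT mouse 1. Without that array these 5 ranked between 11 and 47 of 115. Likeness to miR-145a-3p thus went with a shared discordant array, on which 19 of the 116 miRNAs were discordant.

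miR-145a-5p had no discordant spot. The miRNAs most like it were miR-5121, miR-199a-3p, miR-106b-5p, miR-690 and miR-5099, with r between 0.682 and 0.945. miR-199a-3p is made in fibroblasts and smooth muscle cells from the same hairpins as miR-199a-5p. miR-5121, the closest, was at 9.44, 9.04 and 9.21 in untreated WT and 9.26, 8.68 and 9.05 in WT-BLM lungs. None of the 5 was discordant in untreated WT mouse 1 or WT-BLM mouse 1, but miR-106b-5p was in WT-BLM mouse 2 and miR-5099 in WT-BLM mouse 3.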

How the data were processed

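Lungs of 6 mice were profiled for miRNA, 1 per array with a single dye, and the sample labels gave the groups. For each of 5022 spots the authors deposited an intensity, the median over the spot, with its spread and with no background removed. A second deposited table holds their normalized intensities, with 1 linear value per probe. Its normalization method is not given in the sources used here. Its log2 values and those computed here correlated at r = 0.974 to 0.996 on each array, across the 116 probes detected everywhere, which are not independent replicates. Its median over all miRNA probes was 3 or 4.

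In R 4.3.3 with limma 3.58.1, normexp (offset 50) was fitted on all spots and control spots were then removed. Log2 intensities of the 3926 miRNA spots were quantile normalized, and a probe's value is the mean of its 2 spots. Quantile normalization assumes like distributions in all lungs, and the offset shrinks changes of dim probes. Of 1963 probes, 1462 were detected on no array. The 275 tested probes were fitted with lmFit and eBayes, two-sided, with Benjamini-Hochberg adjustment over all 275. Single differences had an exact permutation test. The steps were tested on simulated data with little noise between the 2 spots of a probe and planted changes larger than those of the members. Discordant spots and small changes were thus not covered.

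The members and lists were chosen with earlier results of these data known. The miRNAs named are the members, other products of the family, miRNAs of the smooth muscle and stromal list with an unadjusted p under 0.05 or groups that did not overlap, and the 5 most like each member. Beyond that rule, miR-21a-5p, the miR-29 family, miR-99a-5p, miR-100-5p and muscle miRNAs were named from the lists after their values were seen. A list of 8 blood and immune miRNAs, all tested, had a median log2 fold change of 0.04, that of 8 epithelial miRNAs was 0.10, and both endothelial miRNAs (miR-126a-3p, 0.76, with discordant spots in untreated WT mouse 1, and miR-126a-5p, 0.22) had higher means. There were 15 alternatives chosen at the start, 3 chosen after seeing the data (first, second or brighter spot of each probe) and 6 omissions of a mouse. The sequences of the cluster's own miRNAs are not reported here. The sources used here give no batch. The p-values rest on the spread between single mice with 1 array each, which also holds array and spot error. In limma this spread is moderated over all tested probes.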

Additional observations from a re-analysis of the deposited data

How the results depend on the processing

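The direction of miR-143-3p held under the 12 of 18 alternatives that can change it (other filters, tests and the block cannot), whereas that of miR-145a-5p and miR-145a-3p did not. The log2 fold change of miR-145a-5p was 0.13 with no normalization between arrays and 0.054 with second spots only. That of miR-145a-3p was -0.047 in the authors' values with 50 added, -0.051 with 1 added, and -0.15 with the brighter spot of each probe. With 1 mouse left out, the log2 fold change was between -1.20 and -0.25 for miR-143-3p, highest without WT-BLM mouse 1, between -0.10 and -0.01 for miR-145a-5p and between 0.10 and 0.48 for miR-145a-3p, lowest without untreated WT mouse 1. The change of the miR-145a arm difference was then between -0.54 and -0.13, and that of miR-143-3p minus miR-145a-5p between -1.16 and -0.15, while under the alternatives they lay between -0.74 (first spots only) and -0.03 (second spots only), and between -1.48 and -0.12. The median of the smooth muscle and stromal list was 0.31 with no normalization, 0.029 with scaling to the 75th percentile and 0.044 with first spots only, and between 0.028 (without untreated WT mouse 3) and 0.22 with 1 mouse left out. Under the 75th percentile scaling, the median of all 275 miRNAs was -0.22 and the members were at -0.92, -0.15 and 0.07. Relative to that median the members were at -0.70, 0.07 and 0.29 and the list at 0.25. No setting gave an adjusted p under 0.05. The count with an unadjusted p under 0.05, 5 as reported, was 8 with cyclic loess, 8 with scaling to the 75th percentile, 46 with no filter (1963 probes), 1 with probes detected on all arrays (116 probes), 12 with a robust SD for detection (570 probes), 14 with array weights, 9 with the methods' paired t-test, 8 with first spots only and 2 with second spots only. With 1 mouse left out it was between 1 (without WT-BLM mouse 3) and 20 (without untreated WT mouse 3), with 11 without untreated WT mouse 1 and 3 without WT-BLM mouse 1. The causes of these moves were not tested. The mouse numbers were taken to share only a label, since deviations of same-numbered mice correlated at 0.16, 0.03 and 0.07. With the replicate number as a block the unadjusted count was 8, while the members' log2 fold changes, -0.88, -0.05 and 0.33, cannot move under a block in this balanced design. Groups of 3 mice and the spread of the empty spots on 2 arrays limit what could be detected. No block for slide or scan could be fitted, as neither is given in the sources used here.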
